A study of Mus musculus with 5 samples.

Results

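The 10 genes described here serve the presentation of antigen to helper T cells: the regulator Ciita, the class II chain genes H2-Aa, H2-Ab1 and H2-Eb1, the peptide loading genes H2-DMa, H2-DMb1 and Cd74, and the costimulatory genes Cd80, Cd86 and Cd40. They were taken by gene symbol and not by a cut on their values, although earlier results of these data were known at the choice. All 10 were found among the 34970 symbols of the count table. The table held 5 mouse RNA sequencing libraries, 1 for each kind of cell, all labelled wild type: blood cells (PB, given as CD45-positive in the series design), bone marrow (BM), embryonic fibroblasts (MEF), induced pluripotent stem cells (iPSC) and a culture called a myeloid-like cell complex (MCC). The series title concerns the conversion of fibroblasts into macrophages. Not given in the sources used here: strain, age, sex, the number of animals and how the MCC cells were made. With 1 library a group there is no spread between replicates, so no p-value is given and every difference compares these libraries only.

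MHC class II molecules are pairs of an alpha and a beta chain that display peptides from the endosomal pathway to CD4 T cells. In mice the classical pairs are I-A, encoded by H2-Aa and H2-Ab1, and I-E, whose beta chain is H2-Eb1. CIITA is the coactivator that switches these genes on together with the invariant chain and DM genes, by joining factors already bound at their promoters. CD80 and CD86 deliver the accompanying signal through CD28, and CD40 receives help from the T cell through CD40 ligand. B cells and dendritic cells carry class II at rest, whereas macrophages raise it mainly after exposure to interferon-gamma.

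Levels are CPM, read counts per 1000000 reads of the library, scaled between libraries by the trimmed mean of M values. Total counts ran from 30078366 to 47557598. Ranges in brackets are 95% intervals for counting error only, and a gene with 0 reads is set against a floor of 3 counts. Markers fitted the labels in outline: the 8 pluripotency markers all reached 5 CPM in iPSC and none did elsewhere. Macrophage markers summed to 13132 CPM in MCC, 7497 in BM, 4483 in PB, 10.3 in MEF and 24.9 in iPSC. Lyz2 alone gave 5597 CPM of this sum in MCC, 6849 in BM and 3202 in PB. Of the 10 macrophage markers, 10 reached 5 CPM in MCC, 10 in BM and 5 in PB. Fibroblast markers summed to 29026 CPM in MCC and 21986 in MEF, against 379.9 in iPSC, 173 in PB and 121 in BM, so MCC held transcripts of both kinds. Thy1 alone gave 166 CPM of the fibroblast sum in PB. In such bulk libraries, fewer cells of a type and less RNA per cell cannot be told apart. The library code of PB is not in the run of the other 4, so a batch and PB cannot be told apart.

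The MCC library held transcripts of part of the set only. All 10 genes were at 5 CPM or more in PB and in BM, 6 in MCC, 3 in iPSC and 1 in MEF, while 29.3% to 32.0% of genes in the table reached that level in each library. The regulator and the 3 chain genes were below 1 CPM in MCC. Cd74, H2-DMb1, Cd86, Cd40 and Cd80 lay between 8.84 and 35.8 CPM there, and H2-DMa was at 5.05 CPM, just over the minimum. PB was the highest library for each of the 10 genes.

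**Figure D1:**
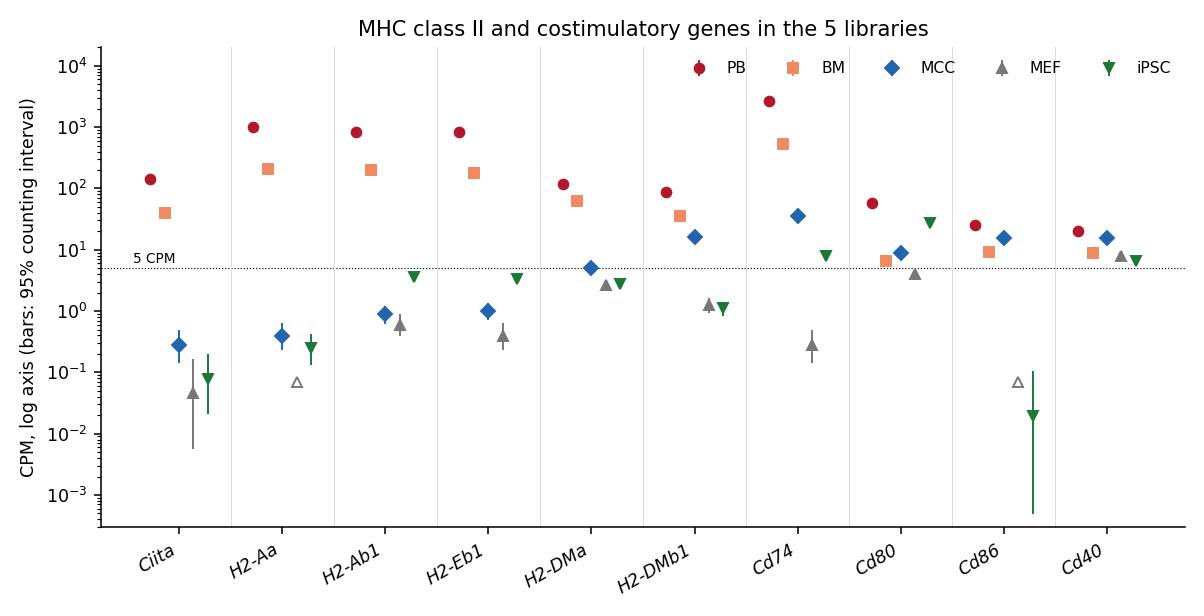
CPM of the 10 genes (horizontal axis) in each library on a log axis, with 95% counting intervals; open symbols mark 0 reads, drawn at the floor of 3 counts, and the dotted line is 5 CPM. Ciita and the 3 chain genes lay below the 5 CPM line in MCC, MEF and iPSC, while Cd86 was at 15.3 CPM in MCC with 0 reads in MEF and Cd40 stayed between 6.52 and 20.4 CPM in all 5 libraries.

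Ciita, the master regulator of the class II genes, was at 145 CPM in PB and 39.7 in BM, against 0.278 in MCC, 0.0462 in MEF and 0.0765 in iPSC. The last 3 values rest on 12, 2 and 4 reads. Ciita in MCC was thus 143-fold (81.7 to 278) lower than in BM and 522-fold (298 to 1011) lower than in PB. Against MEF the ratio was 6.01-fold (1.34 to 55.2) higher, with both libraries far under 5 CPM, and iPSC and MEF could not be separated (1.65-fold, 0.237 to 18.3). Of the Ciita exon bases 3.45% lie in exons of Dexi on the opposite strand, and Dexi was at 24.8 CPM in MCC. As the strand setting is not given, the 12 Ciita reads in MCC are an uncertain count. Ciita lies on mm10 chromosome 16, 10480059 to 10528418, and has several promoters, which counts per gene do not separate.

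The chain genes followed the same order in the native libraries. H2-Aa, the I-A alpha chain, was at 1018 CPM in PB and 211 in BM, against 0.393 in MCC, 0 in MEF and 0.249 in iPSC. H2-Ab1, its beta partner, was at 841, 202, 0.879, 0.601 and 3.65 CPM in the same libraries, and H2-Eb1, the I-E beta chain, at 818, 176, 0.995, 0.393 and 3.35 CPM. All 3 chains were thus under 5 CPM in MCC, MEF and iPSC. Neither the MCC and iPSC levels of H2-Aa (1.58-fold, 0.724 to 3.54) nor the MCC and MEF levels of H2-Ab1 (1.46-fold, 0.865 to 2.51) were apart beyond counting error. The other pairs were: MCC was 4.15-fold (2.92 to 6.05) lower than iPSC in H2-Ab1, 3.36-fold (2.40 to 4.81) lower in H2-Eb1, and 2.53-fold (1.41 to 4.73) higher than MEF in H2-Eb1. With 17 reads in MCC and 0 in MEF, H2-Aa was higher in MCC by at least 5.67-fold. Relative to BM, MCC was 537-fold (335 to 923) lower in H2-Aa, 229.9-fold (167 to 325) in H2-Ab1 and 177-fold (131 to 244) in H2-Eb1. Relative to PB the differences were 2588-fold (1616 to 4442), 956-fold (696 to 1352) and 822-fold (609.8 to 1136). The summed CPM of the 3 chains was 2677 in PB and 589 in BM, against 2.27 in MCC, 0.994 in MEF and 7.25 in iPSC. Strain is not given, and class II genes differ in sequence between mouse strains, so mapping losses against mm10 were not tested.

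The chain and DM genes lie together on chromosome 17, between 34119541 (the start of H2-DMa) and 34316674 (the end of H2-Eb1). Their promoters are known for an X box, bound by the RFX factors, followed at a fixed distance by a Y box, bound by NF-Y. CIITA docks on this assembly. The windows that follow, 250 bases before to 50 after the gene start from RefSeq (GRCm38.p6), are shown because these 3 genes hold a like arrangement of letters and differed in level in MCC. Capitals mark the X half-site and the Y box core.
H2-Aa (chr17:34287774-34288073, minus strand): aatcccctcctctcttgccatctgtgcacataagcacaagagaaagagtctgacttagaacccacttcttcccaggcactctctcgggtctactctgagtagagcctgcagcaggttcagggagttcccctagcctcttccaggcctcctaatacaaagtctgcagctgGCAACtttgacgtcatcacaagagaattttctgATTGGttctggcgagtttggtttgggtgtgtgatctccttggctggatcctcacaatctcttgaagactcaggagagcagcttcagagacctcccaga
H2-Eb1 (chr17:34305617-34305916, plus strand): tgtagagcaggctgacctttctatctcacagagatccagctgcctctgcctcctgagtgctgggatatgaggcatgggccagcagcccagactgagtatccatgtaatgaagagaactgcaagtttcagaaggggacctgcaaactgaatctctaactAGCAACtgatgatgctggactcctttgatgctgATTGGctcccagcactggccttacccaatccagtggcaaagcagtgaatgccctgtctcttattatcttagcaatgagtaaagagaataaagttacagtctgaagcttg
H2-DMb1 (chr17:34152941-34153240, plus strand): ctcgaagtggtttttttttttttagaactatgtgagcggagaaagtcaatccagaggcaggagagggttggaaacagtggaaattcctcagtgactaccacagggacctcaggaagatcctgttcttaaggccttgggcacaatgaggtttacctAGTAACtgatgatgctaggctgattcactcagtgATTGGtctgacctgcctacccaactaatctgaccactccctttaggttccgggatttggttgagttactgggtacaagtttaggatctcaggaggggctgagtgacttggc
The half-site searched for was AGNAAC. The Y box core, ATTGG, had to follow on the same strand after 18 to 36 bases, on either strand of the window. H2-Eb1 and H2-DMb1 held it, with gaps of 27 and 28 bases, and the half-site began 92 and 95 bases before the start. H2-Aa met only a wider search with GNAAC as the half-site, which was chosen after its window was read, with a gap of 28 bases and the half-site 81 bases before the start. The arrangement occurred in 0.992% of the 32851 promoter windows, and in 3.14% with the wider half-site. The half-site alone occurred in 48.1% of windows and the Y box core alone in 37.4%. Windows were found for 5 of the 10 genes: those of H2-DMa and Cd80 did not hold the arrangement, and Ciita, H2-Ab1, Cd74, Cd86 and Cd40 had no entry. Of 4 other class II genes with a window, 3 held it, H2-Eb2, H2-Oa and H2-Ob, with gaps of 27, 28 and 25 bases. A match is a description of the letters, and the 3 genes shown did not move alike in MCC: H2-Aa and H2-Eb1 were below 1 CPM and H2-DMb1 was at 16.4 CPM.

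Cd74 encodes the invariant chain, which fills the groove of new class II molecules and guides them to the endosome. It was at 2648 CPM in PB and 535 in BM, then 35.8 in MCC, 8.04 in iPSC and 0.277 in MEF. All 5 levels were apart beyond counting error, and PB placed Cd74 as its 15th most abundant gene. MCC was 129-fold (73.7 to 250.3) higher than MEF, 4.46-fold (4.0 to 4.98) higher than iPSC, 15-fold (14.2 to 15.8) lower than BM and 74.0-fold (70.3 to 77.8) lower than PB. Cd74 lies on chromosome 18, 60803848 to 60812652.

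The DM genes encode the alpha and beta chains of the molecule that exchanges the invariant chain fragment for peptide. H2-DMb1 (beta) was at 87.1 CPM in PB and 35.2 in BM, then 16.4 in MCC, 1.25 in MEF and 1.11 in iPSC. MCC was 13.1-fold (9.94 to 17.6) higher than MEF and 2.15-fold (1.96 to 2.35) lower than BM. H2-DMa (alpha) was at 118, 63.5, 5.05, 2.64 and 2.72 CPM in PB, BM, MCC, MEF and iPSC, only 1.91-fold (1.52 to 2.42) higher in MCC than in MEF. The DM chains therefore differed in MCC. Of the H2-DMa exon bases 10.4% lie in exons of Brd2 on the opposite strand, at 199.7 to 406 CPM in the 5 libraries, so the low H2-DMa counts are uncertain. Of the stretches of 50 bases in H2-DMb1 transcripts 22.7% also occur in H2-DMb2, a neighbouring copy, which was at 214 CPM in PB and 44.7 in BM, against 0.347 in MCC.

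Levels of different genes were compared per kilobase of merged exons, for pairs chosen after their values were seen. Cd74 over H2-Ab1 was 4.82 (4.75 to 4.89) in PB, 4.05 (3.95 to 4.15) in BM, 62.3 (45.2 to 88.3) in MCC, 3.36 (2.83 to 4.01) in iPSC and 0.706 (0.324 to 1.45) in MEF. The MCC library thus held far more invariant chain transcript per class II chain than blood or marrow did, with an H2-Ab1 count of 38 reads. H2-DMb1 over H2-DMa was 6.66 (5.72 to 7.79) in MCC, 1.51 (1.43 to 1.59) in PB, 1.13 (1.06 to 1.21) in BM, 0.972 (0.689 to 1.35) in MEF and 0.838 (0.606 to 1.14) in iPSC. H2-Aa over H2-Ab1 was 0.819 (0.805 to 0.832) in PB, 0.707 (0.686 to 0.729) in BM, 0.302 (0.160 to 0.549) in MCC and 0.0460 (0.0241 to 0.0806) in iPSC. H2-Eb1 over H2-Ab1 lay at 1.28 (1.26 to 1.31) in PB and 1.15 (1.11 to 1.19) in BM. With the longest transcript as the length this last ratio became 0.706 and 0.631, so which chain gene was most abundant depends on the gene model, whereas comparisons of 1 ratio between libraries do not.

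**Figure D2:**
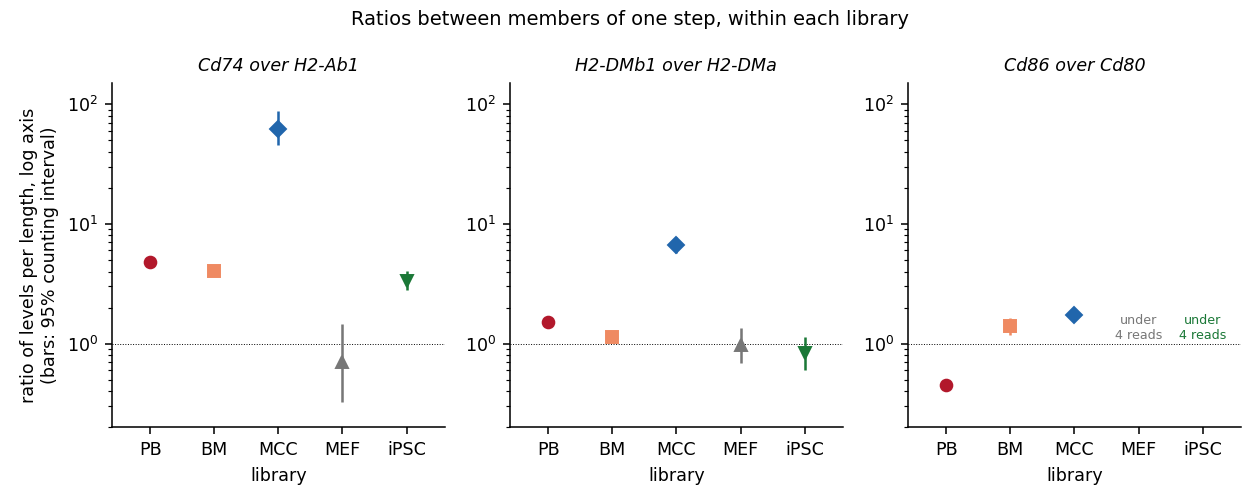
Ratios of levels per kilobase between genes of 1 step, in each library on a log axis, with 95% counting intervals; the dotted line marks equal levels. The MCC points stand highest for Cd74 over H2-Ab1 (62.3) and H2-DMb1 over H2-DMa (6.66), while Cd86 over Cd80 was 1.75 in MCC, 1.39 in BM and 0.448 in PB.

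The costimulatory genes gave 3 different patterns. Cd86, which encodes the ligand that antigen-presenting cells carry at rest, was at 25.6 CPM in PB, 15.3 in MCC and 9.08 in BM, against 0 in MEF and 0.0191 in iPSC. With 660 reads in MCC and 0 in MEF it was at least 220.2-fold higher in MCC, and, against 1 read in iPSC, 798-fold (143 to 31584) higher. MCC lay 1.68-fold (1.48 to 1.92) above BM and 1.68-fold (1.51 to 1.87) below PB. Cd86 in MCC thus lay between marrow and blood, while in MEF and iPSC it was under the floor. The gene lies on chromosome 16, 36603869 to 36666081.

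Cd80, the partner ligand that is usually raised on activation, was at 57.9 CPM in PB, 27.8 in iPSC, 8.84 in MCC, 6.63 in BM and 3.98 in MEF. The stem cells came next after blood, 3.14-fold (2.80 to 3.52) above MCC and 6.98-fold (5.96 to 8.22) above MEF. MCC was 2.22-fold (1.85 to 2.68) higher than MEF, 1.33-fold (1.14 to 1.56) higher than BM and 6.55-fold (5.86 to 7.34) lower than PB. Cd80 lies on chromosome 16, 38455561 to 38496335.

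Cd40, the receptor for T cell help, varied least. It was at 20.4 CPM in PB, 15.6 in MCC, 9.01 in BM, 8.02 in MEF and 6.52 in iPSC. The BM and MEF levels were not apart beyond counting error (1.12-fold, 0.967 to 1.3). MCC was 1.95-fold (1.71 to 2.22) higher than MEF and 1.3-fold (1.17 to 1.46) lower than PB. Cd40 reads in MCC stood beside fibroblast markers summing to 29026 CPM, and the share from fibroblast-like cells was not tested. Cd40 lies on chromosome 2, 165055627 to 165072948.

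Genes were then counted by a rule of size: at least 4-fold apart, with 5 CPM or more in the higher library. Against MEF, 3 of the 10 genes were higher in MCC (Cd74, H2-DMb1 and Cd86) and 0 were lower, and 4 were under 5 CPM in both. Among all genes tested 8.05% were higher and 2.71% lower. Against iPSC the same 3 genes were higher and 0 lower, with 11.3% and 9.77% of all genes; Cd74 missed the threshold with total counts as the scaling or with the counting bound. Against BM, 6 were lower (Ciita, the 3 chains, H2-DMa and Cd74) and 0 higher, with 13.5% of all genes lower and 15.6% higher. Against PB, 8 were lower, all but Cd86 and Cd40, and 0 higher, with 15.4% of all genes lower and 21.5% higher. The median log2 ratio of the 10 genes was 1.67 to MEF, 1.08 to iPSC, -3.78 to BM and -5.38 to PB, beside -0.01, 0.14, 0.11 and 0.38 over all genes tested. The member medians cover all 10 genes, including the 4 under 5 CPM in both libraries against MEF and against iPSC, whereas the others cover tested genes only. These 4 comparisons share the MCC library. Other scalings moved these background medians to as low as 0.10 for PB (DESeq2), -0.26 for iPSC and -0.03 for BM (total counts), and the share of higher genes among those past the rule against iPSC from 53.7% to 41.9%.

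**Figure D3:**
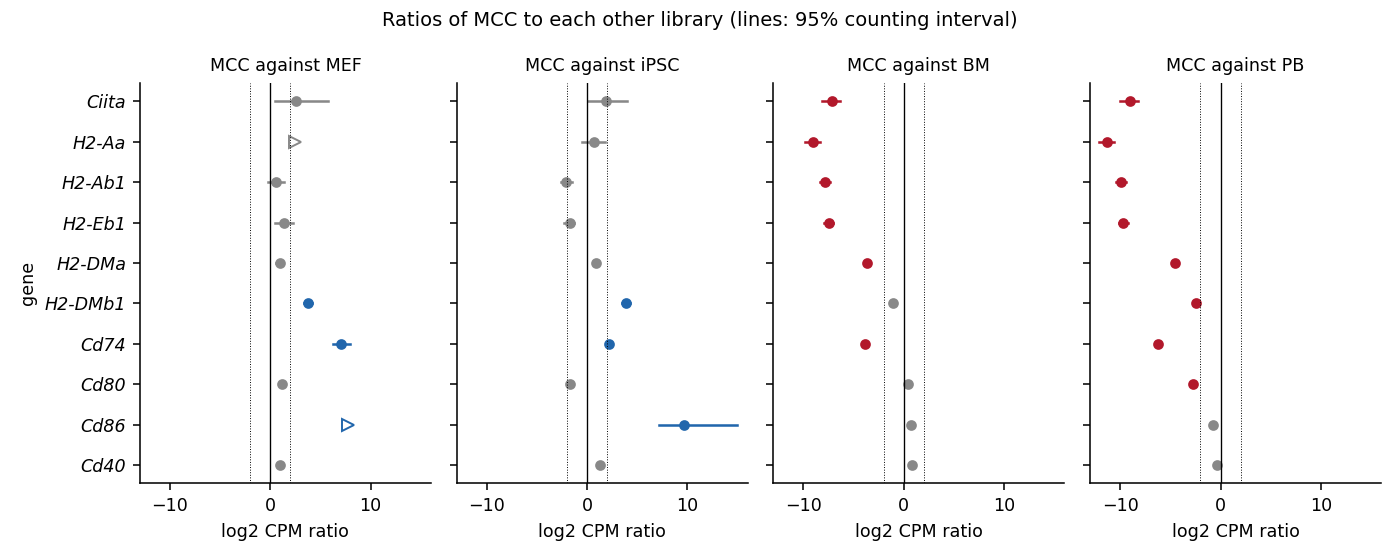
Log2 CPM ratios of MCC to each other library for the 10 genes, with 95% counting intervals; dotted lines mark 4-fold, coloured points met the rule (blue higher, red lower), and triangles are lower bounds against 0 reads. The chain genes and Ciita lie far to the left against BM and PB, and Cd74, H2-DMb1 and Cd86 to the right against MEF and iPSC.

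PB and BM shared the full set, at different levels. Of the 10 genes, 5 were at least 4-fold higher in PB (H2-Aa, H2-Ab1, H2-Eb1, Cd74 and Cd80) and 0 lower, beside 6.32% and 9.68% of all genes. The median log2 ratio was 1.96 for the 10 genes and -0.18 for all tested (-0.00 with DESeq2 scaling). The chains and Cd74 were 4.16-fold (4.06 to 4.26) to 4.95-fold (4.87 to 5.02) higher, Ciita fell just short at 3.65-fold (3.44 to 3.86), and Cd80 differed most, at 8.74-fold (7.68 to 9.97). Ptprc, which encodes CD45, was 4.44-fold (4.37 to 4.5) higher in PB, and the B cell gene Pax5 was 3.58-fold (3.47 to 3.70) higher. B cell markers summed to 1991 CPM in PB and 855 in BM, T cell markers to 1187 and 96.7, and neutrophil markers to 5833 and 62819. The part of this makeup in the class II ratios was not tested.

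Reads were also set against Ptprc within each library, which needs no scaling. Per 100 Ptprc reads there were 43.7 (43.2 to 44.3) H2-Aa reads in PB, 40.3 (39.3 to 41.3) in BM and 0.612 (0.356 to 0.981) in MCC. The gap between PB and BM nearly closed, and that to MCC did not. For Cd86 the values were 1.1 (1.02 to 1.18), 1.73 (1.56 to 1.92) and 23.7 (21.8 to 25.9), and for H2-DMb1 3.74 (3.6 to 3.89), 6.70 (6.35 to 7.07) and 25.5 (23.4 to 27.7). Cd74 gave 114 (113 to 115), 102 (100.1 to 104) and 55.6 (52.3 to 59.2). The reference matters here: Ptprc was at 64.3 CPM in MCC and 525 in BM, while Csf1r, the macrophage growth factor receptor gene, was at 869 and 246 CPM. Per 100 Csf1r reads Cd86 was at 1.76 (1.62 to 1.90) in MCC and 3.69 (3.32 to 4.10) in BM, and H2-DMb1 at 1.88 (1.75 to 2.03) and 14.3 (13.5 to 15.1). The order of MCC and BM thus turned with the reference for Cd86 and H2-DMb1, and likewise for Cd80 and Cd40. In MCC and BM, Cd80 was at 13.7 and 1.26 per 100 Ptprc reads but 1.02 and 2.70 per 100 Csf1r reads. Cd40 was at 24.3 and 1.72, then 1.80 and 3.66. H2-Aa was lower in MCC by both, at 0.0453 (0.0264 to 0.0725) against 86.0 (83.6 to 88.5) per 100 Csf1r reads.

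**Figure D4:**
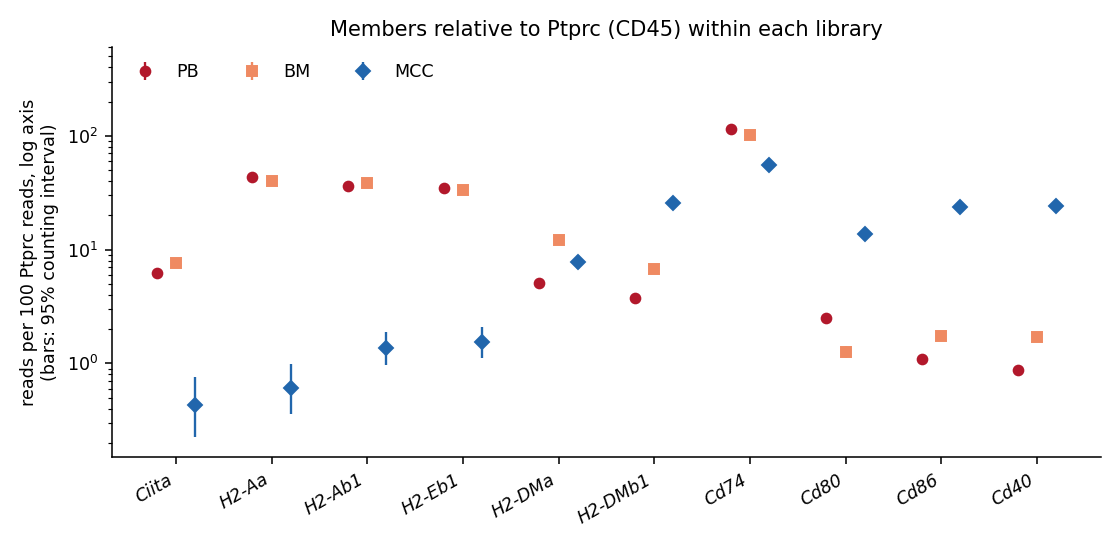
Reads of each gene per 100 Ptprc reads in PB, BM and MCC on a log axis, with 95% counting intervals. PB and BM lie close together for the chain genes (43.7 and 40.3 for H2-Aa), MCC lies far below them there (0.612), and it lies above them for H2-DMb1, Cd80, Cd86 and Cd40. Per Csf1r read, not drawn here, MCC was below PB and BM for these last genes too.

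Most B cell markers and several dendritic cell markers had few reads in MCC. H2-Aa had 17 reads, H2-Ab1 38 and H2-Eb1 43, while the B cell genes Cd79a and Pax5 had 6 and 2, and 1 of 10 B cell markers, Ebf1, reached 5 CPM (48.9 in MCC and 37.1 in MEF). The dendritic cell markers Flt3, Clec9a and Cd209a were at 0, Itgax had 9 reads, and the list sum of 484 CPM was mostly Bst2 at 476. Of the 10 dendritic cell markers 2 reached 5 CPM in MCC, Bst2 and Zbtb46, a transcription factor gene, which was at 7.22 CPM in MCC, 13.4 in BM, 0.670 in PB, 4.30 in MEF and 6.41 in iPSC. The neutrophil gene S100a8, at 66 reads, was 8019-fold (6303 to 10369) lower in MCC than in BM. The part of other cells or of carry-over between libraries in these traces was not tested.

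The stem cell library held another partial set. Against MEF, 2 of the 10 genes were higher in iPSC, Cd74 at 29.0-fold (16.4 to 56.5) and Cd80, and 0 lower, beside 8.83% and 6.37% of all genes tested. Only 3 of the 10 were tested, as 7 were under 5 CPM in both libraries. Total count scaling moved the share of higher genes among those past the rule from 58.1% to 69.6% and the median of all tested genes from -0.11 to 0.25, and turned the sign for H2-DMb1, Cd86 and Cd40, none of which met it. H2-Ab1 and H2-Eb1, with 191 and 175 reads in iPSC, were 6.08-fold (4.02 to 9.54) and 8.52-fold (5.17 to 15) higher than in MEF but under 5 CPM. H2-Aa had 13 reads there, Ciita 4 and Ptprc 0, and B cell markers summed to 5.45 CPM. The iPSC traces were thus of beta chains and invariant chain with little of the alpha chain.

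Genes with the profile nearest to the chains and Cd74 were sought among 12618 genes that reached 5 CPM in a library, by the Euclidean distance of centred log2(CPM + 1) values over the 5 libraries. Among the 5 nearest were the integrin gene Itgal (distance 0.828), the B cell genes Pax5 (1.24) and Cd79a (1.33), and the myeloid receptor gene Trem1 (1.33). Those nearest to Ciita were Zfp831 (0.408), the IgM receptor gene Fcmr (0.425), Mefv (0.443), H2-DMb2 (0.487) and the B cell kinase gene Blk (0.527). With 5 libraries this describes levels that are high in PB, lower in BM and near 0 elsewhere. Nothing further is read from it.

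Of 5 other class II genes in the table, 4 followed the chains, not Cd74. H2-Ob, a chain of the DM inhibitor, was at 471 CPM in PB and 62.1 in BM, against 0.139 in MCC. These 4 were at least 4-fold lower in MCC than in BM and than in PB, beside 13.5% and 15.4% of all genes. Of the 5, 0 reached 5 CPM in MCC. The remaining gene, H2-Ea, the I-E alpha chain gene, had 8 reads in PB (0.268 CPM), 1 in BM and 0 in MCC, MEF and iPSC. Its partner H2-Eb1 was at 818 CPM in PB and 176 in BM. Of 7 genes for factors that bind class II promoters, 0 were past the 4-fold rule in any of the 4 comparisons of MCC. Over all genes tested 8.05% were higher and 2.71% lower against MEF, so 0 of 7 against MEF is near that share. Against PB the shares were 21.5% and 15.4%. The median log2 ratio of the 7 was 0.09 to MEF and -0.63 to BM, beside -0.01 and 0.11 over all genes tested. NF-Y subunit genes Nfya and Nfyc in MCC were at 48.5 and 36.7 CPM, with 45.7 and 51.0 in MEF, and Creb1 at 33.3 and 37.0 CPM. Smaller differences went beyond counting error. The genes of the RFX complex, which binds the X box, were named after their values were seen: Rfx5 was 2.20-fold (1.92 to 2.53), Rfxank 2.19-fold (1.89 to 2.54) and Rfxap 1.47-fold (1.32 to 1.63) higher in MCC than in MEF. Nfya was 2.80-fold (2.66 to 2.95) lower in MCC than in BM, and Creb1 3.52-fold (3.31 to 3.74) lower than in PB.

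Interferon-gamma reaches Ciita through its receptor and JAK kinases. The cytokine gene Ifng had 0 reads in MCC, MEF and iPSC and was at 2.51 CPM in PB and 0.270 in BM. Of 8 genes of this route tested against MEF, 2 were higher in MCC and 0 lower, beside 8.05% and 2.71% of all genes. The 2 included Socs1, a feedback inhibitor, at 23.4 against 5.43 CPM, named here after its values were seen. Ifngr1 and Ifngr2, the receptor genes, in MCC were at 83.7 and 111 CPM, with 35.3 and 71.7 in MEF, and Jak1 was at 354 and 283 CPM. The list median was 1.27 to MEF and -1.67 to PB, beside -0.01 and 0.38 over all genes tested. Against PB 4 of 8 were lower and 0 higher, beside 15.4% and 21.5% of all genes.

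Genes for processing antigen and the invariant chain and for class II turnover were mixed in MCC. Ctss, the cathepsin that trims the invariant chain in antigen-presenting cells, was at 649.5 CPM in MCC, 500.2 in PB, 179.6 in BM and 0.116 in MEF. The endosomal proteases Ctsl and Lgmn were at 1584 and 1315 CPM in MCC, against 38.6 and 55.5 in BM. In MEF these 2 were at 702 and 87.1 CPM, and in iPSC at 289 and 110.0 CPM. Ctsl was 2.26-fold (2.23 to 2.29) higher in MCC than in MEF, short of the rule. Of 7 such genes 3 were higher in MCC than in MEF (Ctss, Lgmn and Marchf1, the last named after its values were seen) and 0 lower, and 2 were higher than in BM and 0 lower. The shares over all genes were 8.05% higher and 2.71% lower against MEF, and 15.6% and 13.5% against BM. Marchf8, a ubiquitin ligase, was at 69.4 CPM in MCC and 67.3 in MEF. Against BM, 3 of the 7, Ctss, Ctsl and Lgmn, were higher in MCC beyond counting error, and the other 4 were lower. Sppl2a and Ifi30 were also named after their values were seen. Sppl2a, an intramembrane protease that cuts the invariant chain, was at 88.0 CPM in MCC, 107 in BM and 140.3 in PB, and Ifi30, a lysosomal thiol reductase, at 56.5 CPM in MCC, 101 in BM and 94.2 in PB. Marchf1, a ubiquitin ligase that lowers surface class II, was at 12.2 CPM in MCC, 45.8 in BM and 142 in PB.

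Other ligands for T cells were mixed. Of 12 in the list, 5 reached 5 CPM in MCC or MEF, of which 4 met the rule as higher in MCC and 0 as lower. The shares over all genes tested were 8.05% and 2.71%. Cd48, an adhesion ligand, was at 64.7 CPM in MCC and 0.0231 in MEF, and Cd83, a marker of activated presenting cells, at 7.43 and 0.0462 CPM. Icam1 and Icosl, named after their values were seen, were at 40.9 and 8.82 CPM in MCC against 1.78 and 1.25 in MEF. Against PB, 4 of 7 ligands tested were lower in MCC and 1 higher (15.4% and 21.5% of all genes). Against BM 1 of 6 was lower and 1 higher (13.5% and 15.6%), and against iPSC 1 of 7 and 2 (9.77% and 11.3%). In PB, BM and iPSC, Icosl was at 72.1, 56.5 and 11.0 CPM and Icam1 at 78.3, 20.5 and 33.8. Cd83 was at 168, 10.5 and 0.861 CPM there, and Cd48 at 77.4, 50.3 and 0. Cd276, a B7 family gene, was at 55.1 CPM in MCC and 63.1 in MEF, with 1.03 in BM, and Cd274, which encodes PD-L1, at 2.57 CPM in MCC and 79.6 in PB. Among the receptors on T cells, Cd28, the receptor for CD80 and CD86, was at 24.3 CPM in MCC, 203 in PB, 4.0 in BM and 0.0231 in MEF, while Cd4 was at 3.26 CPM in MCC and T cell markers summed to 1.09 CPM. Of 9 genes of CD40 signalling, 8 were tested between MCC and MEF and 0 were past the rule. Over all genes 8.05% were higher and 2.71% lower. The median was 0.69, beside -0.01 over all genes tested. Against PB 4 of 9 were lower in MCC and 0 higher (15.4% and 21.5% of all genes). Against BM 1 of 9 was lower and 0 higher (13.5% and 15.6%). Against iPSC 3 of 8 were higher and 0 lower (11.3% and 9.77%). Nfkb2 and Birc3 in MCC were at 125 and 55.1 CPM, with 67.0 and 14.6 in MEF.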

How the data were processed

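Polyadenylated RNA from 5 libraries was sequenced, with Trizol extraction per the labels' protocols. The authors deposited whole-number read counts per gene symbol, not normalized; STAR, featureCounts and mm10 are named per the submitters' processing notes, and not given in the sources used here: versions, annotation, strand setting and filters. All 5 columns were matched to libraries by code, with 0 unused.

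CPM values were computed on TMM library sizes (edgeR 4.0.16, R 4.3.3). Ratios carry exact conditional binomial (Clopper-Pearson) intervals and levels exact Poisson ones, computed in Python 3.11.15 with scipy 1.17.1, numpy 2.4.6 and pandas 2.3.3, and plotted with matplotlib 3.10.9. Reads carry no stated molecular identifiers, so intervals cover counting error only. Counts under 3 were set to 3 for the rule of size and for medians. No model was fitted, since each group has 1 library; the calculation was tested on simulated data. Positions and lengths came from GENCODE M21 (mm10). Promoter windows of 300 bases came from RefSeq.

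The members and 14 gene lists were chosen with earlier results of these data known. Named were all 10 members, 2 genes highest in MCC and 2 highest in PB or BM from the lists described, and 5 nearest profiles for each target; others are said to be chosen later. Of 118 list entries 117 were in the table. Some genes that this rule takes are not reported here. Alternatives were DESeq2 1.42.0 size factors, total counts, no minimum level, 20 CPM, the counting bound, removal of the 10 most abundant genes per library with mitochondrial and haemoglobin genes, longest transcripts, a gap of 10 to 50 bases and GNAAC.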

Additional observations from a re-analysis of the deposited data

How the results depend on the processing

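No paired analysis was possible because each group has 1 library, and no library could be left out. No direction turned for a member past the rule under any of the 3 other scalings, which moved member log2 ratios by at most 0.40. Counts of members against BM and PB stayed within 1.5 times under all 6 alternatives, and so did PB against BM, where DESeq2 scaling added Ciita (6 genes). With no minimum level the higher counts became 5 for MCC against MEF (adding Ciita and H2-Aa) and 4 for iPSC against MEF, and 1 gene, H2-Ab1, became lower in MCC than in iPSC. With a minimum of 20 CPM the higher count was 1 for MCC against MEF, 1 for MCC against iPSC (Cd74 in both) and 1 for iPSC against MEF (Cd80), since fewer genes are tested. With total counts 1 gene, Cd80, was lower in MCC than in iPSC. Total counts and the counting bound each left 2 genes, H2-DMb1 and Cd86, higher there. With the longest transcript as length H2-Aa over H2-Ab1 was 0.455 in PB and 0.393 in BM, and H2-Eb1 over H2-Ab1 0.706 and 0.631. The motif arrangement was in 2.07% of windows with a gap of 10 to 50 bases and in 3.14% with GNAAC. Depth limits the values under 10 reads most: Ciita in MEF and iPSC, Cd86 in MEF and iPSC, and H2-Aa in MEF, where Cd86 and H2-Aa had 0 reads.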
